A study of Mus musculus with 8 samples.

Results

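A set of 10 genes of the Hippo pathway's transcriptional arm were examined in tumor organoids with and without SOX4. They were chosen by name as the 4 TEAD factors (Tead1, Tead2, Tead3 and Tead4), their coactivators Yap1 and Wwtr1, which encodes TAZ, and 4 target genes (Ccn1, Ccn2, Ankrd1 and Amotl2). These genes and the gene lists used below were chosen with earlier results of these data known. Shares called among them are therefore descriptions. All 10 were found among the 38293 gene identifiers of the bulk count files, and all 10 among the 15142 genes listed in at least 1 single-cell library, where Ccn1 and Ccn2 carry their older symbols Cyr61 and Ctgf.

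The organoids came from mammary tumors of mice that carry MMTV-PyMT, MMTV-Cre and Ecadherin-mCFP, where the polyoma middle T antigen and the Cre recombinase are driven in mammary epithelium by the MMTV promoter. Bulk RNA was sequenced from 2 control lines (WT1 and WT3) and 3 SOX4KO lines made by genome editing (H7, M4 and H4), and single cells were sequenced from 1 control library (GR17) and 2 SOX4KO libraries (GR18 and GR19). All organoids had been grown for 4 days after splitting, in medium with B27 and FGF2. Every bulk line stands for 1 clone, so differences between clones that have nothing to do with SOX4 are part of the spread, and the labels do not say which bulk line each single-cell library corresponds to.

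The Hippo pathway is a kinase cascade in which MST kinases activate LATS kinases, and LATS phosphorylates YAP and TAZ so that they stay out of the nucleus. When the cascade is off, YAP and TAZ enter the nucleus and bind TEAD factors, which hold the DNA contact, and switch on genes for matrix proteins, cytoskeletal regulators and growth. In mammary epithelium this output responds to cell shape, stiffness of the surroundings and cell contact, and it has been tied to basal and progenitor states. Since YAP and TAZ are controlled mostly by phosphorylation and location, the RNA levels given here do not measure their activity.

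TEAD factors recognise the core GGAATG, which reads CATTCC on the other strand. This core was searched on both strands of the RefSeq promoters of build GRCm38.p6, each running from 250 bases before to 50 bases after a transcription start. Of the 10 genes, 7 matched a promoter entry, and Tead1, Tead4 and Ccn2 did not. The core was present for 6 of these 7 genes, beside 14.7% of all 32851 promoters in the table and 16.6% of the 27025 genes they belong to. The promoters of the 3 matched targets and of Tead2, the TEAD gene with the largest difference below, are shown with the core in capitals, because they show where a TEAD match stands among genes that did and did not differ.
Ccn1: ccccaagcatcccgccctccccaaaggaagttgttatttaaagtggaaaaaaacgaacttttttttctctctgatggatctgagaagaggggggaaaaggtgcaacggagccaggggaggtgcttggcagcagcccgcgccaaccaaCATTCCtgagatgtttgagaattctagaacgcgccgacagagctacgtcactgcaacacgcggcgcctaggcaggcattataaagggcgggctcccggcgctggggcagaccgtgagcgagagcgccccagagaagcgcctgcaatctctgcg
Amotl2: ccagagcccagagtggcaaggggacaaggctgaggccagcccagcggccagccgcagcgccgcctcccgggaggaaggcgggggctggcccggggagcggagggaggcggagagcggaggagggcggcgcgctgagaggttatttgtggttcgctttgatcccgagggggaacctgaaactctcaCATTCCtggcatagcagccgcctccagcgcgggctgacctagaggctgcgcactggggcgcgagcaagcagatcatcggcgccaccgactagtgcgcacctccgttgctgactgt
Ankrd1: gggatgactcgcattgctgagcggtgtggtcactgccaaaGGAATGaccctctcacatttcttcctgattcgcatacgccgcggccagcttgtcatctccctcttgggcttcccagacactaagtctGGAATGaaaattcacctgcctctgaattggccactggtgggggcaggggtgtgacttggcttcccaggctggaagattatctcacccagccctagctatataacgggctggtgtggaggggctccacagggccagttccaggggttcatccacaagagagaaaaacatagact
Tead2: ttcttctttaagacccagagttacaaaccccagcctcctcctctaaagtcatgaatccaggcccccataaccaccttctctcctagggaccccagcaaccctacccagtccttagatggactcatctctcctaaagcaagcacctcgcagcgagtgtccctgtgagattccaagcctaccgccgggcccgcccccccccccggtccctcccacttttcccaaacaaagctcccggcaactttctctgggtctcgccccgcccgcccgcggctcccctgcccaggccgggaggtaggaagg

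The Ccn1 promoter (chr3:145649936-145650235, minus strand) held 1 core in the CATTCC orientation, starting 103 bases before the start site. In the Amotl2 promoter (chr9:102717554-102717853, plus strand) the single CATTCC began 65 bases before it. The Ankrd1 promoter (chr19:36119795-36120094, minus strand) held 2 cores in the GGAATG orientation, 210 and 123 bases upstream, and 1.36% of all promoters held 2 or more. The Tead2 promoter (chr7:45215542-45215841, plus strand) did not contain these letters. Yap1 held 1 core, both promoters of Wwtr1 overlap and share the same 1 core, and 2 of the 3 Tead3 promoters held at least 1. A match is a run of letters and not a measured binding site, since no binding data were collected.

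Library facts that touch the results were as follows. Reads counted on genes ranged from 3050323 to 4678497 over the bulk libraries, and single-cell libraries 369, 369 and 362 kept cells with 7714119, 8009481 and 8296953 unique molecular identifiers (UMIs). Sox4 RNA was still read in every SOX4KO line, at 199, 179 and 299 CPM (counts scaled to a common library size) in H7, M4 and H4 against 295 and 374 in WT1 and WT3, and the groups overlapped (log2 fold change -0.57, SE 0.25, edgeR adjusted p = 0.277). In the single cells it stood at 118 CPM in GR17, 82.5 in GR18 and 110 in GR19. A small indel can leave the transcript in place, so these levels do not check the knockout labels. Markers of other cell types were low in bulk, with the 8 endothelial markers summing to 1.81 to 4.68 CPM, the 8 immune markers to 1.79 to 14.4 CPM, and the 8 fibroblast markers to 59.8 to 114 CPM, of which Pdgfra made up 41.4 to 99.8 and Thy1 and Fap were at 0 in every line. In the single-cell libraries these 3 lists summed to 2.75 to 5.06, 2.72 to 9.36 and 7.24 to 8.04 CPM. The 20 cycling markers summed to 1064 and 1036 CPM in WT1 and WT3 and to 520, 694 and 460 CPM in H7, M4 and H4. All 20 were lower in every SOX4KO line than in both control lines, beside 17.9% of all genes tested. Their median log2 fold change was -0.91. In the edgeR comparison described below, 11 of the 20 (55%) were called lower and 0 higher, beside 2.17% and 4.1% of all genes. The 20 luminal markers summed to 4809 to 5315 CPM in 4 lines and to 10392 CPM in H4, where Lcn2 and Csn3 alone measured 5891 and 2287. Of these 20, 17 were tested, and 1 rose (Esr1) and 2 fell (Cited1 and Prom1), with a median log2 fold change of -0.51. That is 17.6% called, beside 6.27% of all genes tested. In GR17, GR18 and GR19 the luminal markers summed to 4734, 8099 and 10207 CPM, the 15 basal markers to 3844, 3478 and 1895, and the cycling markers to 3763, 2934 and 3001. Among the basal markers Krt17 was at 152, 4.49 and 1.45 CPM, and Krt5 at 1867, 1466 and 519. Others went the other way, such as Trp63 at 51.5, 79.8 and 65.0 CPM and Snai2 at 78.0, 123 and 99.9. Over the 7 basal markers that reached 20 CPM on average, the median log2 ratio to GR17 was 0.24 in GR18 and 0.33 in GR19. The part of these shifts in the results below was not tested.

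To ask whether RNA of the TEAD module differed without SOX4, the bulk counts were compared with edgeR's quasi-likelihood test across all 11682 genes that passed the filter on low counts, and a gene was called at a Benjamini-Hochberg adjusted p under 0.1. Tead2 and Tead4 fell in the SOX4KO lines, and none of the other 7 tested genes was called. Of the 10 genes, 9 were tested, and 2 of them (22.2%) were called, against 6.27% of all genes tested. Both calls were falls, and 2.17% of all genes were called lower and 4.1% higher. The median log2 fold change was 0.26 over the 9 tested genes and 0.0087 over all genes. DESeq2 called 3 of the 9, adding Ccn2 as higher, where it called 7.4% of the 13028 genes it gave an adjusted p. In bulk RNA, fewer cells that express a gene and less RNA per cell cannot be told apart.

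**Figure D1:**
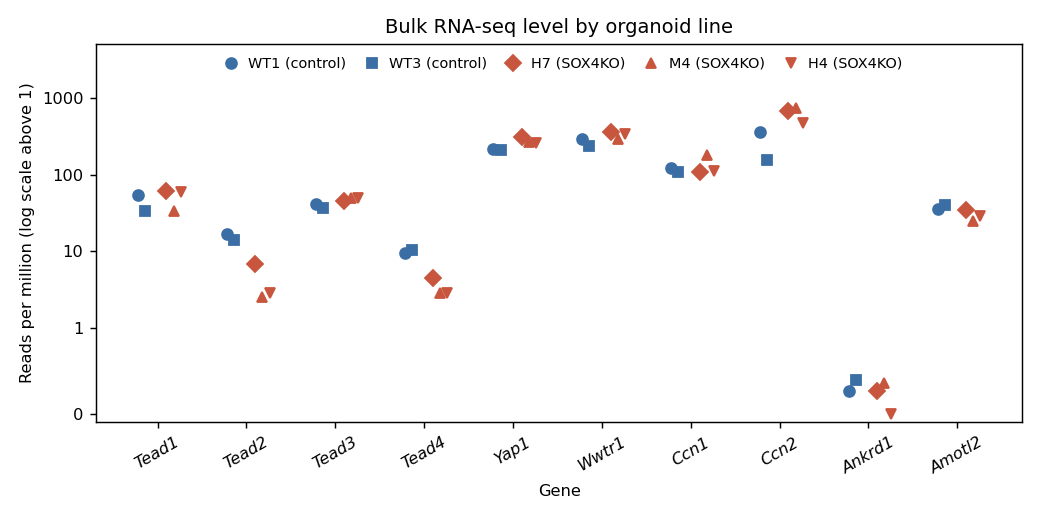
Reads in CPM of the 10 genes (horizontal axis) in each of the 5 bulk libraries on a vertical axis that is logarithmic above 1 and linear below, with blue symbols for the 2 control lines, red symbols for the 3 SOX4KO lines and 1 symbol shape per line. Tead2 and Tead4 sit lower in all 3 SOX4KO lines than in both control lines, Ccn2 sits higher, and Ankrd1 stays under 1 CPM in every library.

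Tead2 (ENSMUSG00000030796), a TEAD factor of early embryos and of neural progenitors, measured 16.6 CPM in WT1 and 13.9 in WT3. The SOX4KO lines measured 6.78 (H7), 2.52 (M4) and 2.87 (H4), from raw counts of 26, 7 and 12 reads against 64 and 70. Every SOX4KO line was below both control lines, with a mean of 4.06 ± 2.37 (SD, n = 3) against 15.3 ± 1.86 (SD, n = 2). The fitted log2 fold change was -1.88 (SE 0.42, 95% interval -2.85 to -0.90), with an edgeR adjusted p of 0.0566 and a DESeq2 adjusted p of 0.0144. The gene lies on chromosome 7 from 45215753 to 45233644 (GRCm38, plus strand) and overlaps Cd37 on the other strand, to which 0 reads were counted in 4 lines and 2 reads in WT3.

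Tead4 (ENSMUSG00000030353, chromosome 6 from 128224288 to 128300823, minus strand), which is known for its role in the trophectoderm of the early embryo, followed the same order. It measured 9.58 CPM in WT1 and 10.6 in WT3, and 4.44, 2.88 and 2.87 in H7, M4 and H4. Counts were 37 and 53 reads in the control lines against 17, 8 and 12 in the SOX4KO lines, which again did not overlap. The log2 fold change was -1.55 (SE 0.36, 95% interval -2.37 to -0.73), with an edgeR adjusted p of 0.0604 and a DESeq2 adjusted p of 0.0631. Both calls depended on having 2 control lines, because without WT1 the edgeR adjusted p was 0.295 for Tead2 and 0.285 for Tead4, and without WT3 it was 0.359 and 0.523, while the log2 fold changes stayed between -2.002 and -1.48.

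Tead1 and Tead3 were not called. Tead1, a broadly expressed factor, measured 53.6 and 33.7 CPM in WT1 and WT3 and 61.8, 33.8 and 59.6 in H7, M4 and H4, and the groups overlapped (log2 fold change 0.26, SE 0.30, edgeR adjusted p = 0.726). Without WT3 its log2 fold change was -0.04. Tead3, known from placenta and other epithelia, measured 41.7 and 36.4 CPM in the control lines against 45.1, 49.7 and 49.8 in the SOX4KO lines. Its groups did not overlap, and the 95% interval of its log2 fold change ran from -0.10 to 0.71 (edgeR adjusted p = 0.423).

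Set against each other per length, the 4 paralogs made up different shares of their summed level in the 2 groups. In RPKM (CPM per kilobase of summed exon), Tead2 took 21.3% and 21.2% of the TEAD total in WT1 and WT3, and 10.2%, 4.69% and 4.54% in H7, M4 and H4. Tead4 took 16.4% and 21.3% in the control lines against 8.85%, 7.13% and 6.05% in the SOX4KO lines. The Tead3 share was 38.1% and 39.5% against 48.3%, 65.9% and 56.2%, and it was the largest share in every bulk line. The TEAD total itself was 16.3 and 13.8 in the control lines against 13.9, 11.2 and 13.2 in the SOX4KO lines, so the groups overlapped. The Tead1 share is sensitive to its long annotated exons, whose union spans 13570 bases against 3598 for Tead4. These shares are descriptions of the same counts and were not tested.

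**Figure D2:**
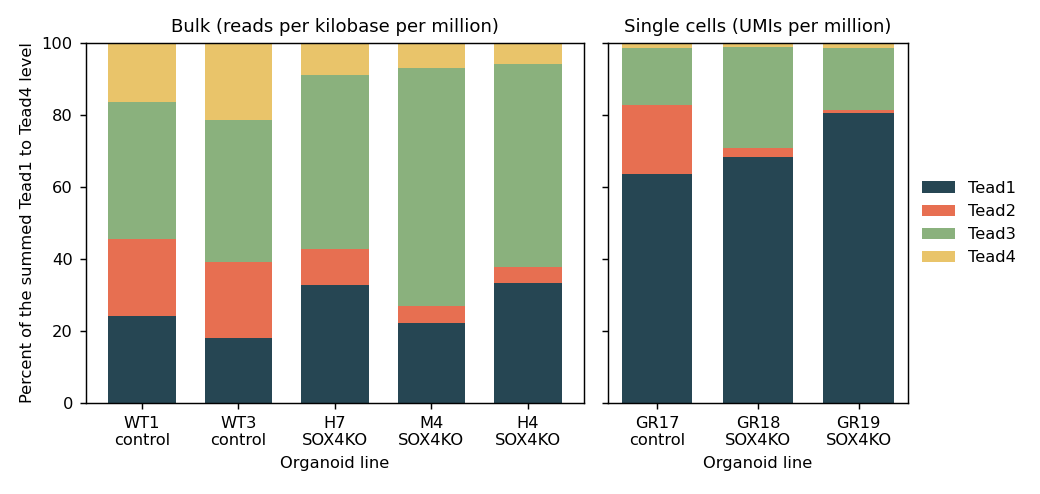
Stacked bars give the percent of the summed Tead1 to Tead4 level (vertical axis) contributed by each paralog in each organoid line (horizontal axis), for bulk RNA per kilobase on the left and for summed single-cell UMIs on the right. The Tead2 segment takes 21.2% to 21.3% in bulk control lines and 4.54% to 10.2% in bulk SOX4KO lines, and 19.3% in the single-cell control library against 2.63% and 0.826% in the SOX4KO libraries.

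The coactivators were not called. Yap1 measured 215 and 210 CPM in WT1 and WT3 and 306, 261 and 260 in H7, M4 and H4. Its log2 fold change was 0.37 (SE 0.17, 95% interval -0.02 to 0.77, edgeR adjusted p = 0.303). Wwtr1 measured 286 and 236 CPM in the control lines against 359, 288 and 338 in the SOX4KO lines (log2 fold change 0.33, SE 0.19, adjusted p = 0.410). Every SOX4KO line was above both control lines for both genes, but such a separation was common, since 36.9% of all genes tested did not overlap between groups, with the SOX4KO lines higher in 19.0% and lower in 17.9%. Among the 9 tested genes 4 stood apart as higher and 3 as lower. Per kilobase, TAZ RNA exceeded YAP RNA in every bulk line and took 68.1% to 72.0% of their sum. In the single-cell UMIs it was below YAP RNA, at 40.5%, 49.0% and 47.6% of their sum in GR17, GR18 and GR19.

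Of the target genes, Ccn2 differed most. Ccn2 (ENSMUSG00000019997, chromosome 10 from 24595442 to 24598683, plus strand), which encodes the secreted matricellular protein CTGF, measured 353 CPM in WT1 and 153 in WT3, and 680, 741 and 465 in H7, M4 and H4. All SOX4KO lines exceeded both control lines, and the control lines themselves lay far apart. The log2 fold change was 1.31 (SE 0.37, 95% interval 0.48 to 2.15). Its edgeR adjusted p of 0.103 lay just outside the threshold, while the DESeq2 adjusted p was 0.00541. WT1 was the control line nearer to the SOX4KO lines, and without it the log2 fold change was 2.04 (adjusted p = 0.0840), whereas without WT3 it was 0.83 (adjusted p = 0.623). Without H4 the gene was also called (adjusted p = 0.0591). An antisense transcript over Ccn2, Gm15270, was counted with 0 to 6 reads.

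Ccn1, which encodes the related protein CYR61, did not follow Ccn2 in bulk. It measured 121 and 107 CPM in WT1 and WT3 and 106, 180 and 113 in H7, M4 and H4, so that H7 lay below both control lines and M4 above (log2 fold change 0.22, SE 0.25, edgeR adjusted p = 0.719). Without M4 the log2 fold change was -0.06. Amotl2, a target that also binds YAP and restrains it, measured 36.0 and 39.8 CPM in the control lines against 34.7, 24.5 and 28.5 in the SOX4KO lines (log2 fold change -0.37, 95% interval -0.85 to 0.11, adjusted p = 0.409). Ankrd1, a target of muscle and of stretched epithelium, had 1, 2, 1, 1 and 0 reads in WT1, WT3, H7, M4 and H4 and was too low to be tested. At these depths a count of 0 allows up to 3 reads, so no difference in Ankrd1 was detectable.

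**Figure D3:**
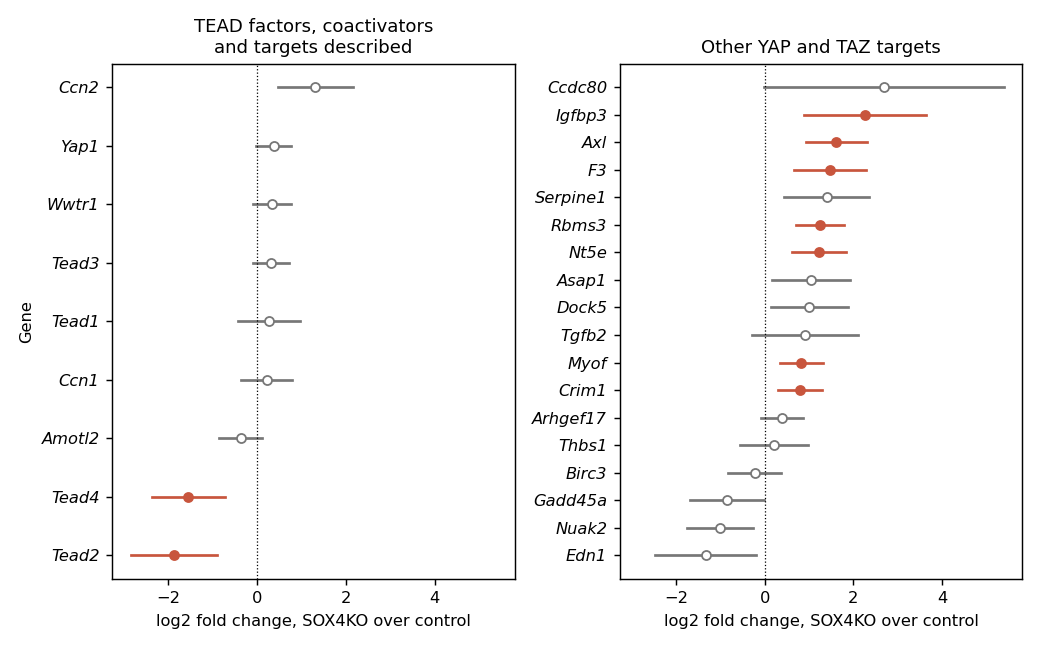
Points give the edgeR log2 fold change of SOX4KO over control lines (horizontal axis) with its 95% interval for the 9 tested genes on the left and for 18 other YAP and TAZ targets on the right, and filled red points were called at an adjusted p under 0.1. Tead2 and Tead4 are the called genes on the left, both below 0, and the 7 called genes on the right all lie above 0.

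The rest of the pathway was described from lists of known members. These lists were chosen with earlier results of these data known, so the shares called within them are descriptions. Of 20 other YAP and TAZ targets 18 were tested, and 7 rose and 0 fell, which is 38.9% called beside 6.27% of all genes. Their median log2 fold change was 0.96, and 10 of the 18 stood apart as higher and 2 as lower, beside 19.0% and 17.9% of all genes tested. The 5 of lowest p were Axl, a receptor tyrosine kinase, Rbms3, an RNA-binding protein, Nt5e, an ecto-nucleotidase, F3, the tissue factor of coagulation, and Myof, a membrane repair protein. Axl measured 72.5 and 49.4 CPM in WT1 and WT3 and 251, 170 and 138 in H7, M4 and H4 (log2 fold change 1.62, SE 0.30, edgeR adjusted p = 0.0325). F3 measured 95.0 and 134 CPM in the control lines against 290, 201 and 470 in the SOX4KO lines (1.48, SE 0.36, adjusted p = 0.0673). The log2 fold changes of Rbms3, Nt5e and Myof were 1.25, 1.22 and 0.83, with every SOX4KO line above both control lines. Igfbp3 (2.26) and Crim1 (0.79) were the other 2 called.

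Targets on this list did not all move one way. Thbs1, the target of highest mean CPM that was not called, measured 257 and 202 CPM in the control lines against 399, 172 and 226 in the SOX4KO lines, which overlapped. Nuak2 and Edn1 stood apart as lower without being called, with log2 fold changes of -0.997 and -1.33 (adjusted p = 0.154 and 0.211), and both, like Igfbp3 and Crim1, were named after their values were seen. No gene of this list was called without WT1 or without WT3. Of 15 basal markers 10 were tested, and 3 rose (Oxtr, Jag2 and Snai2) and 0 fell, with a median log2 fold change of 0.71. That is 30% called beside 6.27% of all genes, and 7 of the 10 log2 fold changes were above 0 and 3 below. The 7 not called included Krt5 (1.47), Trp63 (0.98) and Mylk (0.51) above 0 and Krt17 (-1.08), Cxcl14 (-0.41) and Itga6 (-0.13) below. The part of the basal and cycling markers in the target values was not tested.

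Of 17 Hippo kinases and scaffolds, all tested, 1 rose and 0 fell, with a median log2 fold change of 0.13. That is 5.88% called, near the 6.27% over all genes. The gene that rose was Frmd6, a FERM-domain scaffold upstream of the kinases, at 49.96 and 39.8 CPM in WT1 and WT3 and 79.6, 80.3 and 70.7 in H7, M4 and H4 (0.78, SE 0.18, edgeR adjusted p = 0.0659). Mob1a, the LATS cofactor and the gene of highest mean CPM in that list, was not called (log2 fold change 0.25, adjusted p = 0.530). Among 16 tested polarity and junction genes 1 rose (6.25%, again near the share over all genes), which was the protocadherin Fat1, at 454 and 341 CPM in the control lines against 841, 620 and 861 in the SOX4KO lines (0.96, SE 0.23, adjusted p = 0.0684). Amotl1, an angiomotin like Amotl2, was not called (0.39, adjusted p = 0.382). Frmd6 and Fat1 were not called without WT1, without WT3 or without H7.

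TEAD cofactors that compete with YAP were represented by Vgll4, the repressor of the family, with 121 and 131 CPM in WT1 and WT3 and 100, 90.3 and 92.9 in H7, M4 and H4. It was not called (log2 fold change -0.42, SE 0.16, edgeR adjusted p = 0.219), and Vgll1, Vgll2 and Vgll3 had 0 reads in every line. Of the other CCN proteins Ccn5 was the 1 tested and was not called (0.54, SE 0.80). AP-1 subunits, which often sit beside TEAD at enhancers, gave 0 calls of 6 tested by edgeR, with 2 at an unadjusted p under 0.05 and 1 called by DESeq2. Targets of SRF and MRTF, another mechanosensitive program, gave 0 of 6, with 1 at an unadjusted p under 0.05 and 1 called by DESeq2. In these lists Junb (log2 fold change 0.20) and Flna (-0.0048) had the highest mean CPM and were not called.

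Single-cell libraries offered a second view of the same genes in other preparations. UMIs were summed over all kept cells of a library and divided by the library's total to give CPM, with exact Poisson 95% intervals that cover counting error only. No test between groups was run on these libraries, because 1 of the groups is a single library. Of the 10 genes, 7 reached 20 CPM on average, and 0 of these differed at least 2-fold in the same direction in both SOX4KO libraries, against 2.22% of 6301 genes (1.9% higher and 0.317% lower). That filter removed Tead2, whose mean was lowered by the SOX4KO libraries themselves. A filter of 20 CPM in at least 1 library, chosen after seeing the data, let Tead2 in through GR17 alone, so its place among the genes past 2-fold lower is a description and counts as no support. Under that filter 0.601% of 6824 genes were past 2-fold lower and 3.03% in either direction.

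**Figure D4:**
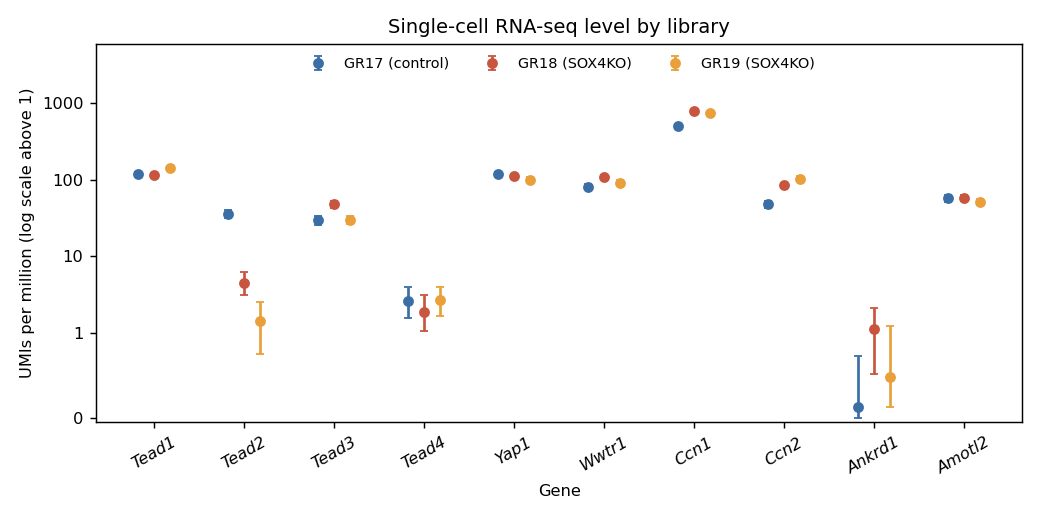
Summed CPM of the 10 genes (horizontal axis) in the 3 single-cell libraries on a vertical axis that is logarithmic above 1 and linear below, with bars for exact Poisson 95% intervals. Tead2 drops from 36.3 in GR17 to 4.49 in GR18 and 1.45 in GR19, Ccn1 and Ccn2 lie higher in GR18 and GR19, and Tead4 and Ankrd1 lie under 3 in every library.

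The Tead2 level was 36.3 CPM (32.2 to 40.8) in GR17, from 280 UMIs. It was 4.49 (3.15 to 6.22) in GR18 and 1.45 (0.747 to 2.53) in GR19, from 36 and 12 UMIs. The ratio of SOX4KO to control was therefore 0.124 (0.0850 to 0.176) for GR18 and 0.0398 (0.0203 to 0.0707) for GR19. Among wells, 45.5% of GR17 cells held a Tead2 UMI, against 9.21% and 3.04% in GR18 and GR19. After thinning every cell to 5000 UMIs, which left out 8, 4 and 4 cells, the shares were 17.5% (13.7 to 21.8, exact binomial), 1.92% (0.774 to 3.91) and 0.838% (0.173 to 2.43). Fewer cells with a UMI were thus found in each SOX4KO library at equal depth. A lower level by itself lowers this share, so fewer expressing cells and less RNA per cell cannot be told apart here either.

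Tead4 did not repeat its bulk order at this depth. It gave 20, 15 and 22 UMIs in GR17, GR18 and GR19, or 2.59 (1.58 to 4.00), 1.87 (1.05 to 3.09) and 2.65 (1.66 to 4.01) CPM, and the intervals overlapped. The ratio to control was 0.722 (0.344 to 1.48) for GR18 and 1.02 (0.533 to 1.98) for GR19. Tead1 had the most UMIs of the TEAD genes here, at 120, 116 and 141 CPM. That was 63.5%, 68.3% and 80.6% of the TEAD total, whereas Tead3 took the largest share per kilobase in every bulk line. Tead3 measured 29.8, 47.8 and 29.9, so that GR18 stood above the others and GR19 equalled the control library within counting error.

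Yap1 measured 119, 113 and 101 CPM in GR17, GR18 and GR19, with ratios to control of 0.948 (0.864 to 1.04) and 0.847 (0.770 to 0.931). In bulk its SOX4KO lines had been above the control lines, with an interval that included 0. Here the GR18 interval included 1, and the GR19 interval lay below 1 but covers counting error only. Whether the assays differed in direction was not tested. Wwtr1 measured 81.3, 109 and 91.6, with ratios of 1.34 (1.20 to 1.48) and 1.13 (1.01 to 1.25). Cells with a UMI of either coactivator were in the majority in every library, at 79.8% to 85.9% for Yap1 and 75.1% to 83.4% for Wwtr1.

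Ccn2 was higher in both SOX4KO libraries, as it had been in the bulk lines. It measured 48.0 (43.2 to 53.1) in GR17, 85.1 (78.9 to 91.8) in GR18 and 104 (97.1 to 111) in GR19, with ratios of 1.78 (1.56 to 2.02) and 2.17 (1.92 to 2.45). Ccn1, whose groups overlapped in bulk (log2 fold change 0.22), measured 509 (494 to 526), 806 (786 to 826) and 760 (742 to 779). Its ratios were 1.58 (1.52 to 1.65) and 1.49 (1.43 to 1.55). These intervals hold no spread between libraries, for which GR18 and GR19 are the 1 pair within a group. Amotl2 measured 57.4, 57.7 and 51.9, and both ratios had intervals that included 1 (0.880 to 1.15 and 0.790 to 1.04). Ankrd1 gave 1, 9 and 4 UMIs, and 5 of the 9 in GR18 came from 1 cell. Of the 20 other YAP and TAZ targets 11 reached 20 CPM on average. Of these, 2 (F3 and Igfbp3) were past 2-fold higher in both SOX4KO libraries and 0 lower, against 1.9% and 0.317% of 6301 genes. Axl was lower in both, at 104 CPM in GR17, 81.7 in GR18 and 69.1 in GR19. So were Gadd45a (39.9, 24.7 and 26.2), Asap1 (33.8, 22.1 and 25.9) and Thbs1 (57.3, 42.7 and 48.6). In bulk the log2 fold change of Asap1 was 1.05, and it was not called. Myof, Nt5e and Rbms3 were higher in both. Crim1 measured 20.2, 22.3 and 26.3 CPM, from 156, 179 and 218 UMIs. Arhgef17 was higher in GR18 and lower in GR19. Gadd45a, Asap1 and Arhgef17 were named after their values were seen. Fat1 measured 137, 137 and 138 CPM and Frmd6 29.3, 31.8 and 31.1 in GR17, GR18 and GR19.

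The 2 CCN genes were spread over cells in different ways. A Ccn1 UMI was found in 90.2%, 90.0% and 93.4% of cells in GR17, GR18 and GR19, with a median of 7, 12 and 12 UMIs per cell. Ccn2 was found in 35.5%, 47.2% and 54.1% of cells, and the tenth of cells with most Ccn2 carried 60.5%, 55.3% and 51.7% of its UMIs. At 5000 UMIs per cell the Ccn2 shares were 17.5% (13.7 to 21.8), 28.2% (23.7 to 33.1) and 33.0% (28.1 to 38.1), so the control share lay below both others.

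Across cells thinned to 5000 UMIs, the gene whose counts were most like those of Ccn2 was Ccn1, with Spearman correlations of 0.25 in GR17, 0.22 in GR18 and 0.18 in GR19 (361, 365 and 358 cells). Genes were ranked by their lowest correlation over the 3 libraries among 5275 genes found in at least 10% of thinned cells of each. Snai2, Sparc, Mest and Cav1 came next, with lowest correlations of 0.16, 0.14, 0.13 and 0.13. The 5 genes most like Ccn1 were Nr4a1, Igfbp5, Egr1, Junb and Fos, with lowest correlations of 0.26, 0.22, 0.22, 0.21 and 0.20. Amotl2 followed Ccn1 in GR18 (0.15) and GR19 (0.21) but not in GR17 (0.03), and the correlations of Yap1 and Wwtr1 with Ccn1 and Ccn2 lay between -0.07 and 0.09. These values are low, describe cells that share a library and a fixed depth, and are given as descriptions.

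To ask in which cells the genes differed, all kept cells were clustered on 2000 variable genes that excluded the 10 genes and the pathway lists. This gave 6 clusters. Cluster 1 held 328 of the 369 GR17 cells and 6 others, so it may be that library rather than a cell type, and the control library had under 20 cells in every other cluster. Clusters 2 to 6 were made up mostly of SOX4KO cells from both libraries. Clusters 4 (led by Plet1, S100a8, Wfdc18 and Csn3) and 5 (led by Cxcl2, Efr3b and Itgam, with Ltf and Csn3 among its first 10) were luminal-like, with luminal markers summing to 18050 and 13593 CPM against 4115 to 5698 elsewhere. Cluster 6 was led by the mitotic genes Aspm, Cenpe and Hmmr. Clusters 2 (led by Pip, Postn and Calml3) and 3 (led by Serpinf1, Pi15 and Mest) were left unnamed. Basal markers summed to 5296 CPM in cluster 2, 3338 in cluster 3, 4047 in cluster 1 and 3485 in cluster 6. In clusters 4 and 5 they summed to 550 and 478. Cycling markers summed to 864 CPM in cluster 2 and 897 in cluster 4, against 3892 to 4686 in the other clusters.

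**Figure D5:**
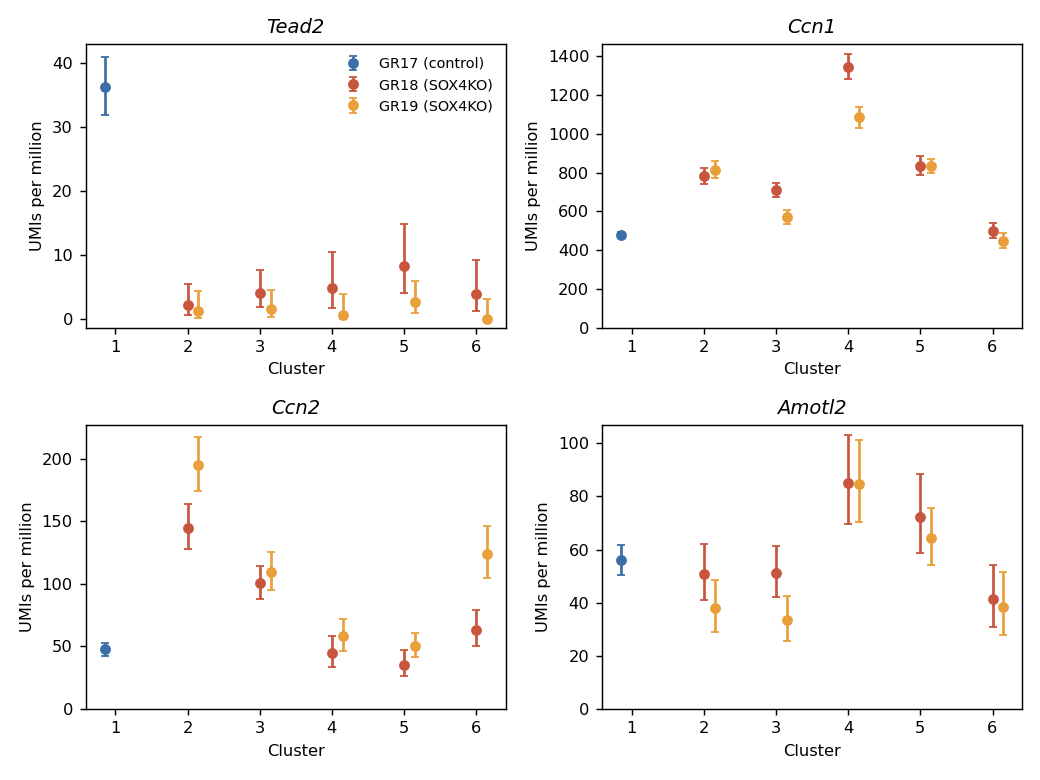
Summed CPM (vertical axes) of Tead2, Ccn1, Ccn2 and Amotl2 in each of the 6 clusters (horizontal axes) for each library with at least 20 cells there, with exact Poisson 95% intervals. Ccn2 is highest in cluster 2 and Ccn1 and Amotl2 in cluster 4 in both SOX4KO libraries, and Tead2 stays under 10 in every SOX4KO cluster.

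Ccn1 and Ccn2 peaked in different clusters. Ccn2 was highest in cluster 2, at 145 CPM (128 to 164) in GR18 and 195 (174 to 217) in GR19. It was lowest in cluster 5, at 35.4 (26.0 to 47.1) and 50.1 (41.2 to 60.4), which is 4.10 times and 3.89 times lower. The luminal-like cluster 4 was also low, at 44.5 and 58.1. Ccn1 had its highest level in that same cluster 4, at 1348 (1284 to 1414) in GR18 and 1086 (1032 to 1141) in GR19, and its lowest in the mitotic cluster 6, at 498 and 449.

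Amotl2 followed Ccn1 in being highest in cluster 4, at 85.0 (69.6 to 103) and 84.7 (70.2 to 101) CPM, and it was 33.3 to 51.1 in clusters 2, 3 and 6. Wwtr1 was highest in cluster 2 (134 and 122), and Yap1 was lower in cluster 4 (85.9 and 87.4) than in cluster 2 (124 and 122). Tead3 measured 60.0 and 51.3 in cluster 2 and 25.6 and 16.9 in cluster 5. The 20 other YAP and TAZ targets summed to 773 and 863 in cluster 2 and 828 and 875 in cluster 3, and to 504 and 557 in cluster 5. In cluster 4 the 2 libraries lay apart, at 471 in GR18 and 726 in GR19, and cluster 6 stood at 776 and 728.

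Tead2 was low in all SOX4KO clusters, from 2.18 to 8.29 CPM in GR18 and from 0 to 2.73 in GR19. In cluster 6 of GR19 no Tead2 UMI was found, which allows up to 3.23 CPM by the exact Poisson interval. At a lower resolution of 0.3, which gave 4 clusters, the luminal-like cluster (luminal markers at 15287 CPM) held 28 GR17, 106 GR18 and 135 GR19 cells, and so allowed all 3 libraries to be set side by side. There Tead2 measured 41.2 (26.9 to 60.4) in GR17, 6.62 (3.86 to 10.6) in GR18 and 1.94 (0.780 to 4.00) in GR19, so it was lower in both SOX4KO libraries within that cluster too.

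In the same cluster Ccn2 measured 42.8 (28.2 to 62.3), 39.7 (32.4 to 48.2) and 53.5 (46.2 to 61.6) CPM in GR17, GR18 and GR19, and the 3 intervals overlapped. Ccn1 there measured 771 (704 to 843), 1082 (1042 to 1123) and 937 (906 to 969), above the control library in both SOX4KO libraries. Outside it Ccn2 was highest in the cluster led by Pip, Postn and Calml3. That cluster held 9 GR17 cells, too few to give a control value, against 106 and 93 SOX4KO cells. In the cluster led by Serpinf1, Cmah and Pi15, with 0 GR17 cells, Ccn2 measured 87.9 CPM (78.4 to 98.3) in GR18 and 116 (104 to 129) in GR19. The cluster with 332 of the GR17 cells measured 47.6 (42.6 to 53.0) in GR17. Whether Ccn2 differed between groups within the Pip or the Serpinf1 cluster was therefore not measurable here.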

How the data were processed

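Bulk RNA was sequenced from 2 control and 3 SOX4KO organoid lines, and single cells from 1 control and 2 SOX4KO libraries. The authors deposited raw read counts per Ensembl gene (HTSeq) for bulk and UMI counts per gene and plate well for single cells, both without normalization. The submitters' processing notes name STAR 2.4.2a, HTSeq, Seurat and the builds NCBIM37 and mm9. The files hold no coordinates, and whether HTSeq used strand is not given in the sources used here. Lines of the HTSeq files that name no gene made up 71.6% to 83.9% of their sums and were left out.

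Symbols, positions and exon lengths came from the GENCODE annotation of GRCm38. Bulk counts were tested in edgeR 4.0.16 (filterByExpr, TMM, glmQLFit, glmQLFTest) in R 4.3.3, called at an adjusted p under 0.1, and as an alternative in DESeq2 1.42.0. CPM in bulk use TMM-scaled library sizes, and intervals are 95%. Wells with fewer than 1000 UMIs were dropped (15, 15 and 22 in GR17, GR18 and GR19), and spike-ins were removed. No doublet caller was run, and 8, 20 and 11 wells exceeded 2 times their library's median UMIs. In single cells, 1 CPM was added before folds were taken. Clusters came from Seurat 5.3.0 (10 principal components, 20 neighbours, resolution 0.5). Methods were tested on simulated data.

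The members and lists were chosen with earlier results of these data known. Named genes were the members, Sox4, from each fixed list the called genes (at most 5, by lowest p) and the gene of highest mean CPM not called, and the 5 genes most like Ccn1 and Ccn2. The lists of cell type and cycling markers were given as sums and counts, with few of their genes named. Alternatives covered DESeq2, its size factors, low-count filters, thresholds, omitted lines and libraries, and cluster resolution.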

Additional observations from a re-analysis of the deposited data

How the results depend on the processing

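The number of genes called in bulk was 733. It was 1686 with every gene of at least 1 count tested, 354 at an adjusted p under 0.05, and 56 to 1006 with 1 line left out, lowest without WT3 and next lowest, at 130, without WT1. The number of the 10 genes called was 2 in the main test, 0 at an adjusted p under 0.05 and 0 to 3 with 1 line left out, at 1 without WT1 and 0 without WT3. Of the wider pathway lists 9 genes were called, 17 without the filter, 2 at an adjusted p under 0.05 and 0 to 11 with 1 line left out, with 0 without either control line and 5 without H7. Where 1 control line was left, the fit assumes that it varies like the SOX4KO lines. The number of the 10 genes past 2-fold in both SOX4KO single-cell libraries was 0. It was 1 (Tead2) with a filter of 20 CPM in any library, which was chosen after seeing the data and which Tead2 passed only through GR17, so this count adds no support. It was 0 to 1 with a SOX4KO library left out, at 1 (Ccn2) without GR18. Ccn2 differed 3.84-fold between its highest and lowest cluster over all cells and 3.56-fold at resolution 0.3.

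Of 81 bulk values of the 9 tested genes under alternatives, 71 kept their direction and side of the threshold. Tead2 and Tead4 lost their calls without WT1 and without WT3. Ccn2 gained a call with DESeq2, with no filter (adjusted p = 2.03e-06), without WT1 and without H4, and its adjusted p ranged up to 0.623. With 1 line left out the log2 fold change ranged from -0.043 (without WT3) to 0.63 for Tead1, from -0.062 (without M4) to 0.35 for Ccn1, from -0.21 (without H7) to 0.44 for Thbs1, from -0.94 (without H4) to 1.004 for Ccn5 and from -0.10 (without H7) to 0.088 (without WT1) for Flna, so these 5 changed direction. The causes were not tested. No paired analysis was possible because the lines are independent clones whose labels carry no shared replicate numbers.

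Depth limits Tead4 and Ankrd1 in single cells and Tead2 and Tead4 in bulk, where SOX4KO lines had 7 to 26 reads. Replicate error rests on 2 control and 3 SOX4KO lines in bulk, and in single cells on GR18 and GR19 alone.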
